A study of Mus musculus with 6 samples.

Results

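The genes of pyruvate oxidation and the TCA cycle were followed in activated mouse CD8+ T cells with and without butyrate, as 35 genes chosen by name. They were the mitochondrial pyruvate carrier, pyruvate carboxylase, the pyruvate dehydrogenase complex with kinases and phosphatases that control it, enzymes of the cycle, and the linked malic enzyme, aspartate transaminases and citrate carrier. All 35 were found among the 27179 genes of the count table, and all 35 passed the filter on low counts that left 11740 genes for testing. Both groups were spleen cells of transgenic gBT-I mice, whose CD8+ T cells recognise gB498-505, a herpes simplex virus peptide. The cells were cultured with that peptide and lipopolysaccharide, supplied with IL-2 from day 2 to day 5 and collected on day 6. The 3 control libraries received no further treatment by their labels, and the 3 butyrate libraries received butyrate, a short-chain fatty acid that inhibits histone deacetylases, from day 3. The culture began from whole spleen, and no purification of the CD8+ T cells is described in the sources used here. The animals' ages and the number of mice are not given there either.

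Pyruvate made by glycolysis crosses the inner mitochondrial membrane through the carrier formed by MPC1 and MPC2. Inside, pyruvate dehydrogenase turns it into acetyl-CoA, while pyruvate carboxylase turns it into oxaloacetate, and citrate synthase joins these products to start the cycle. Activated T cells are known for fast glycolysis, and they use the cycle both for respiration and as a source of citrate and aspartate for growth.

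Library totals ran from 5383380 to 6244350 counts. Of 8 T cell markers 0 rose and 1 fell, and their summed level was 3790 to 4290 CPM in control and 3541 to 4548 CPM with butyrate (CPM are counts scaled to a common library total, here with TMM factors that allow for library composition). The summed level of 10 myeloid and dendritic cell markers was 23.2 to 78.4 CPM in control and 86.4 to 97.8 CPM with butyrate, and that of 8 B and plasma cell markers was 27.4 to 29.7 and 40.8 to 49.2 CPM. For 6 NK cell markers these ranges were 80.5 to 101 and 67.3 to 75.1 CPM, for 8 granulocyte and mast cell markers 3.90 to 15.4 and 14.4 to 37.5 CPM, and for 8 erythroid and platelet markers 1.11 to 4.06 and 6.88 to 38.8 CPM. Of the NK cell sum, at means of 92.4 CPM in control and 71.4 CPM with butyrate, Eomes alone held 83.2 and 54.6 CPM. Of the myeloid and dendritic sum, at means of 45.85 and 93.4 CPM, Itgam held 4.08 and 44.1 CPM. The defining markers Pax5, Adgre1, Flt3, Siglech, Ncr1, Klra4, Klra8, S100a8, Mpo, Elane and Alas2 had at most 3 counts in every library. Called higher were 1 of the 10 myeloid and dendritic, 2 of the 8 B and plasma cell, 1 of the 6 NK cell, 2 of the 8 granulocyte and mast cell and 1 of the 8 erythroid and platelet markers, and 1 NK cell marker was called lower. With the replicate number as a block in the fit, 4 T cell markers were called lower (Cd3e, Cd3g, Cd2 and Cd5) and 1 higher (Trac), and the counts of the other marker lists did not change. The part of these cells in the results below was not tested. In bulk RNA, fewer cells of a type cannot be told apart from less RNA per cell.

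Butyrate was followed by changes in both directions among these genes. By edgeR's quasi-likelihood test with an adjusted p under 0.05, 8 of the 35 rose and 10 fell, while 17 did not pass. This share of 51.4% stands near the 45.9% of all genes tested that were called (23.5% higher and 22.5% lower). With upper quartile scaling the split was 10 higher and 7 lower, and that of all genes tested moved the same way, to 28.4% higher and 17.6% lower. With the replicate block the members' split was again 8 and 10, while 27.4% of all genes tested were called higher and 26.4% lower. The median log2 fold change of the 35 was -0.16, against 0.00 over all genes tested, and 2 members changed by at least 2-fold. TMM-scaled levels did not overlap between the groups for 22 members (62.9%), against 57.1% of all genes tested. Together the 35 genes took 0.305%, 0.331% and 0.345% of the counts in the control libraries and 0.327%, 0.342% and 0.326% in the butyrate libraries, so the groups overlapped in this sum. The number of members that rose rested on having all libraries: it was 4 without control replicate 1, 5 without control replicate 2 or 3 or butyrate replicate 1 or 2, and 7 without butyrate replicate 3.

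**Figure D1:**
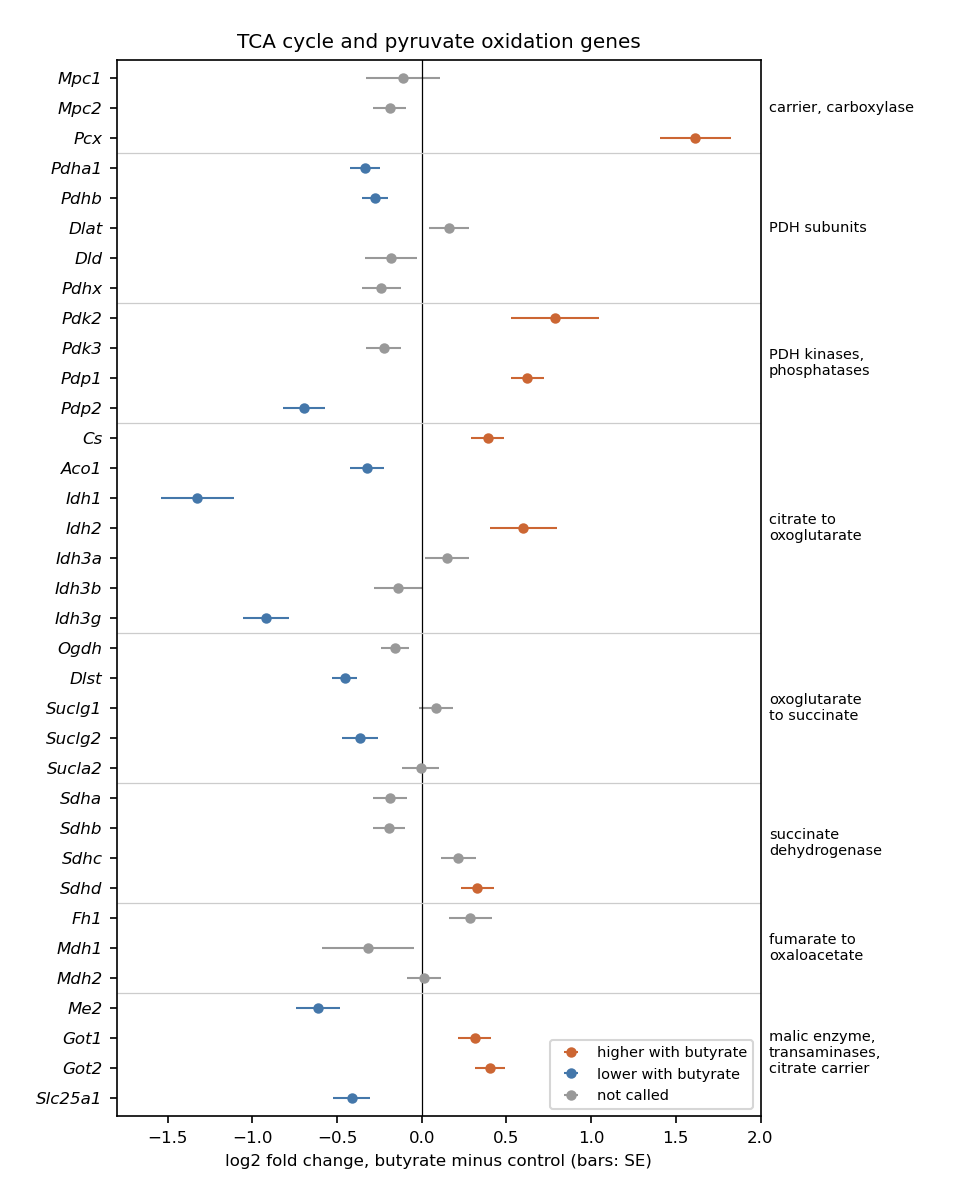
Log2 fold change of each of the 35 genes, butyrate minus control, on the x axis, with bars of 1 standard error from edgeR, grouped by role on the y axis. The largest rise was that of Pcx (1.62) and the largest fall that of Idh1 (-1.32), and 3 of the 8 role groups held called genes on both sides of 0.

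The 250 bases before the start of transcription were read for 4 called members that hold an E-box, CACGTG, the letters bound by Myc and related factors. These 4 are shown because Myc was among the regulators that rose, and they were chosen after their values were seen. Whether Myc had a part in their changes was not tested. Pcx and Pdk2 rose, and Pdp2 and Slc25a1 fell. Sequences are from RefSeq promoter windows of GRCm38.p6, run 5′ to 3′ on the gene's strand, and the E-box is in capitals. The Pcx stretch is chr19:4510222-4510471 on the plus strand, that of Pdk2 chr11:95041372-95041621 on the minus strand, that of Pdp2 chr8:104591222-104591450 on the plus strand (229 bases, up to the first annotated exon) and that of Slc25a1 chr16:17928220-17928469 on the minus strand.
Pcx: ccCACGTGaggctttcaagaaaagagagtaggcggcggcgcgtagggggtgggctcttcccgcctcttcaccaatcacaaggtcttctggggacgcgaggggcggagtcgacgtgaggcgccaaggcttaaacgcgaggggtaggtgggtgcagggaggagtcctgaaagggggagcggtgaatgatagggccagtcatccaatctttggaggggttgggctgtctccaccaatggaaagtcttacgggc
Pdk2: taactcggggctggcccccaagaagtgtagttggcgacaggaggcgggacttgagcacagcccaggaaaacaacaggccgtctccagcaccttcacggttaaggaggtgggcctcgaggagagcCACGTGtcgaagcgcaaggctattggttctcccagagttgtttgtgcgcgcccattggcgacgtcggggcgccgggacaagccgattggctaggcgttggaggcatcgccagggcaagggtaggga
Pdp2: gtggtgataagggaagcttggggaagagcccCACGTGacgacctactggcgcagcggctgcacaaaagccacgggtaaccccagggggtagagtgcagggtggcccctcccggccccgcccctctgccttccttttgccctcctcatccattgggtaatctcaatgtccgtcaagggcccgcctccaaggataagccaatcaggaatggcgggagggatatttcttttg
Slc25a1: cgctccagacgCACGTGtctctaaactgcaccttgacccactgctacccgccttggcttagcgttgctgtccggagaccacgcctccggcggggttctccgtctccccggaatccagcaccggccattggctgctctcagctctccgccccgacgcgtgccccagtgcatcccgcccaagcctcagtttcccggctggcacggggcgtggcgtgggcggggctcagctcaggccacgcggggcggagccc
Motifs were searched on both strands in the windows from 250 bases before to 50 bases after each start, of which 40 belonged to 31 of the 35 genes, and 0 matches of different motifs overlapped. Windows of Pdp1, Idh3a, Sdhc and Me2 were not used here. CACGTG was found in 7 of these 40 windows (17.5%) and in 7.15% of all 32851 windows. The member genes were Pcx, Pdk2, Pdp2, Slc25a1 and Ogdh, of which Ogdh, with 3 of the 7 windows, was not called. The Ogdh windows that begin at 6292308 and 6292329 of chromosome 11 overlap and hold the same E-box, which is counted in both. The NRF1 motif, bound by nuclear respiratory factor 1, was in 4 windows (10.0%, against 4.60% of all), those of Dld, Sdha, Sdhd and Sucla2, and of these only Sdhd was called. CCGGAAGT, an ETS and GABP motif, was in the window of Dlst alone (2.50%, against 3.89% of all), and TCAAGGTCA, a motif of estrogen-related receptors, in that of Sdhd alone (2.50%, against 0.423%). Such a match describes the letters and does not show that a factor bound there.

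Pyruvate carboxylase had the largest change. Pcx encodes the enzyme that makes oxaloacetate from pyruvate (gene 18563, chromosome 19, 4510472 to 4621752). It stood at 6.48, 8.53 and 8.60 CPM in the control libraries and at 18.1, 25.1 and 29.4 CPM in the butyrate libraries. All butyrate libraries were above all control libraries, with 98 to 159 counts against 36 to 53. Its fold was 3.07 (edgeR log2 fold change 1.62 with SE 0.209, adjusted p = 0.000416). The carrier subunits of the membrane did not pass the test, with Mpc1 at 9.46 ± 1.94 and 8.73 ± 1.76 CPM (adjusted p = 0.708) and Mpc2 at 34.9 ± 2.17 and 30.6 ± 1.36 CPM (SD, n = 3, adjusted p = 0.149).

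Genes of the first enzyme of pyruvate dehydrogenase fell by small amounts. Pdha1 and Pdhb encode the alpha and beta subunits of E1, the part of the complex that removes carbon dioxide from pyruvate. Pdha1 (gene 18597, chromosome X, 160122219 to 160138430) stood at 202, 193 and 219 CPM in control libraries and at 150, 172 and 165 CPM in treated ones. Pdhb (gene 68263, chromosome 14, 8165991 to 8173303) stood at 75.6, 79.4 and 75.9 CPM in control libraries and at 63.2, 61.9 and 65.4 CPM in treated ones. For both genes every butyrate library was below every control library. The log2 fold changes were -0.34 (SE 0.0873, edgeR adjusted p = 0.0129) and -0.28 (SE 0.0773, adjusted p = 0.0175). Of the other subunits, the E2 gene Dlat, the E3 gene Dld and the E3-binding protein gene Pdhx did not pass, at log2 fold changes of 0.16, -0.18 and -0.24 (adjusted p = 0.304, 0.36 and 0.125). The call of Pdha1 was lost without control replicate 3 (log2 fold change -0.28, adjusted p = 0.0628). That of Pdhb was lost without control replicate 2 (-0.25, 0.0684) or butyrate replicate 2 (-0.26, 0.0555), with upper quartile scaling (-0.19, 0.0677) and with DESeq2 (-0.27, 0.0652).

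The phosphatases that switch pyruvate dehydrogenase on moved in opposite directions. PDP1 and PDP2 remove the phosphates that its kinases add to E1 alpha. Pdp1 (gene 381511, chromosome 4, 11958183 to 11966450) stood at 28.6, 31.4 and 28.4 CPM in control libraries and at 46.6, 46.4 and 43.1 CPM in treated ones. Pdp2 (gene 382051, chromosome 8, 104591472 to 104599026) stood at 33.3, 41.9 and 37.1 CPM in control libraries and at 24.4, 24.1 and 20.7 CPM in treated ones. The groups did not overlap for either gene, and the log2 fold changes were 0.62 (SE 0.0953, edgeR adjusted p = 0.000927) and -0.70 (SE 0.124, adjusted p = 0.00203). Within a library, the ratio of Pdp1 to Pdp2 in CPM was 0.748 to 0.860 in control and 1.91 to 2.08 with butyrate.

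Of the kinases, which switch the complex off, Pdk2 (gene 18604, chromosome 11, 95026258 to 95041371) stood at 3.96, 4.08 and 4.54 CPM in control libraries and at 8.51, 8.25 and 4.99 CPM in treated ones. It was the least counted member, with 22 to 28 counts in a control library, and butyrate replicate 3 stood close to the controls. Its log2 fold change was 0.79 (SE 0.258, edgeR adjusted p = 0.0339). The call was lost with DESeq2 (adjusted p = 0.0674), without control replicate 1 (0.0829), 2 (0.0871) or 3 (0.0594), and without butyrate replicate 1 (0.106) or 2 (0.114). Pdk3 stood at 41.0, 48.6 and 50.8 CPM in control libraries and at 38.5, 40.2 and 41.4 CPM in treated ones. The groups overlapped, and it did not pass the test (log2 fold change -0.23, adjusted p = 0.11). Within a library, Pdk2 over Pdk3 in CPM was 0.0840 to 0.0965 in control and 0.121 to 0.221 with butyrate. Pdk3 was called lower without control replicate 1 (log2 fold change -0.30, adjusted p = 0.0493).

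**Figure D2:**
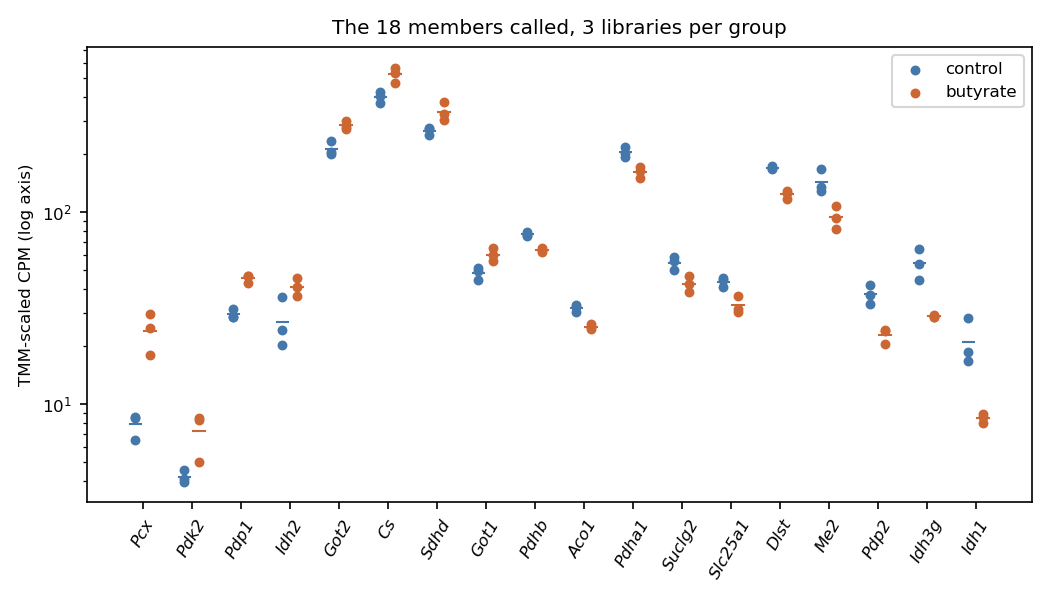
TMM-scaled CPM on a log y axis for the 18 genes called, ordered from the largest rise to the largest fall on the x axis, with 1 point per library and a line at each group's mean. The groups do not overlap for any of the 18, and the closest approach is that of Idh2, where the highest control library stands at 36.2 CPM and the lowest butyrate library at 36.6 CPM.

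Citrate synthase rose. Cs encodes the enzyme that condenses acetyl-CoA with oxaloacetate (gene 12974, chromosome 10, 128337727 to 128362482), and it had the highest count of the 35 genes. It stood at 371, 402 and 424 CPM in control libraries and at 533, 566 and 469 CPM in treated ones, with no overlap. The log2 fold change was 0.39 (SE 0.0982, edgeR adjusted p = 0.0113). Aco1, which encodes cytosolic aconitase, an enzyme that also acts as an iron-responsive RNA-binding protein, stood at 32.2, 30.2 and 32.9 CPM in control libraries and at 24.8, 26.3 and 25.1 CPM in treated ones (log2 fold change -0.32, SE 0.0989, adjusted p = 0.0255). That call was lost without control replicate 1 (adjusted p = 0.0694) or 3 (0.0886), without butyrate replicate 1 (0.0582) or 3 (0.0596), with upper quartile scaling (0.0737) and with DESeq2 (0.118).

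The NADP-dependent isocitrate dehydrogenases moved apart. Idh1 encodes the enzyme of the cytosol and peroxisome (gene 15926, chromosome 1, 65158616 to 65186479) and Idh2 that of the mitochondrion (gene 269951, chromosome 7, 80094845 to 80118608). Idh1 stood at 16.7, 18.7 and 28.1 CPM in control libraries and at 8.88, 8.60 and 7.95 CPM in treated ones. The butyrate libraries lay close together and below all controls, and the log2 fold change of -1.32 by edgeR (SE 0.215, adjusted p = 0.00125) was the largest fall of the 35 genes. Idh2 stood at 20.3, 24.3 and 36.2 CPM in control libraries and at 45.5, 40.9 and 36.6 CPM in treated ones (log2 fold change 0.60, SE 0.196, adjusted p = 0.0335). Control replicate 3 was the highest control for both genes. The call of Idh2 was lost without control replicate 1 (log2 fold change 0.44, adjusted p = 0.083) or 2 (0.54, 0.0979) and without butyrate replicate 1 (0.52, 0.0885) or 2 (0.60, 0.0793). Within a library, Idh1 over Idh2 in CPM was 0.823, 0.771 and 0.776 in control and 0.195, 0.210 and 0.217 with butyrate.

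Of the subunits of the NAD-dependent isocitrate dehydrogenase, only Idh3g was called. This enzyme of the cycle is built of catalytic alpha subunits with beta and gamma subunits, and IDH3G is the gamma, regulatory one. Idh3g (gene 15929, chromosome X, 73778963 to 73786897) stood at 54.0, 44.3 and 64.1 CPM in control libraries and at 29.0, 28.5 and 28.5 CPM in treated ones. All butyrate libraries were below all controls, and the log2 fold change was -0.92 (SE 0.137, edgeR adjusted p = 0.000831). Idh3a stood at 77.8, 110 and 94.2 CPM and at 96.2, 112 and 105 CPM, and Idh3b at 84.2, 75.7 and 115 CPM and at 82.7, 84.1 and 82.8 CPM. Both overlapped between the groups and did not pass the test (log2 fold changes 0.15 and -0.14, adjusted p = 0.366 and 0.45), and without control replicate 3 the value of Idh3b was 0.062. Within a library, Idh3b over Idh3g in CPM was 1.56 to 1.79 in control and 2.85 to 2.95 with butyrate, and Idh3a over Idh3g was 1.44 to 2.49 and 3.31 to 3.91.

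The next steps lead from oxoglutarate to succinate, and 2 of 5 genes fell. Dlst encodes the E2 core of the oxoglutarate dehydrogenase complex (gene 78920, chromosome 12, 85110822 to 85134091). It stood at 169, 174 and 167 CPM in control libraries and at 128, 126 and 118 CPM in treated ones, an edgeR log2 fold change of -0.46 (SE 0.0752, adjusted p = 0.00137). Ogdh, the E1 gene of the same complex, stood at 203, 211 and 189 CPM and at 189, 184 and 168 CPM and did not pass (log2 fold change -0.16, adjusted p = 0.156). The ratio of Ogdh to Dlst was 1.13 to 1.21 in control and 1.42 to 1.47 with butyrate.

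Succinyl-CoA synthetase pairs a common alpha subunit, from Suclg1, with a beta subunit that sets whether the product is GTP (Suclg2) or ATP (Sucla2). Suclg2 (gene 20917, chromosome 6, 95473009 to 95718858) stood at 58.3, 50.3 and 55.6 CPM in control libraries and at 38.5, 42.3 and 46.8 CPM in treated ones (edgeR log2 fold change -0.37 with SE 0.105, adjusted p = 0.0202). Suclg1 was at 48.1 ± 4.91 and 51.0 ± 1.49 CPM and Sucla2 at 33.6 ± 0.643 and 33.5 ± 3.71 CPM (SD, n = 3, adjusted p = 0.527 and 0.969). The Suclg2 to Sucla2 ratio overlapped between the groups, while each butyrate library was below the control library of its replicate number, by log2 differences of -0.79, -0.20 and -0.076. The call of Suclg2 was lost without control replicate 1 (adjusted p = 0.0786) or 3 (0.0651), without butyrate replicate 1 (0.0567) or 2 (0.0561), and with upper quartile scaling (0.0567).

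Succinate dehydrogenase, which also serves as complex II of the respiratory chain, has 4 subunits. Sdha and Sdhb form the catalytic part, and Sdhc and Sdhd anchor it in the inner membrane. Sdhd (gene 66925, chromosome 9, 50596340 to 50603849) rose, from 252, 274 and 273 CPM in control to 302, 375 and 325 CPM with butyrate (edgeR log2 fold change 0.33 with SE 0.0981, adjusted p = 0.0232). Sdhc had a log2 fold change of 0.22 (adjusted p = 0.119), Sdha one of -0.19 (0.152) and Sdhb one of -0.19 (0.131). The Sdha to Sdhb ratio was 5.10 to 6.30 in control and 5.31 to 5.85 with butyrate, and the Sdhc to Sdhd ratio 0.431 to 0.446 and 0.341 to 0.513, so both overlapped. The call of Sdhd was lost without control replicate 1 (adjusted p = 0.074), 2 (0.054) or 3 (0.0511) or butyrate replicate 2 (0.0798). With upper quartile scaling Sdhc was called higher (log2 fold change 0.30, adjusted p = 0.0395).

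From fumarate to oxaloacetate, 0 of 3 genes were called. Fh1, which encodes fumarate hydratase, was at 44.0 ± 3.90 and 53.7 ± 8.31 CPM (SD, n = 3, edgeR adjusted p = 0.0941, and 0.0392 with upper quartile scaling). Mdh2, the gene of mitochondrial malate dehydrogenase, was at 182 ± 21.7 and 184 ± 8.39 CPM (adjusted p = 0.937). Mdh1, the gene of the cytosolic enzyme, stood at 138, 142 and 289 CPM in control libraries and at 133, 139 and 184 CPM in treated ones (adjusted p = 0.365). Replicate 3 was the highest of its group for Mdh1 in both groups, and control replicate 3 stood far above the other controls. Without control replicate 3 its log2 fold change was 0.13 (-0.32 with all libraries, not called in either fit).

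All 4 genes of the reactions that feed or drain the cycle were called, 2 in each direction. Me2 encodes the mitochondrial malic enzyme, which makes pyruvate from malate (gene 107029). It stood at 128, 168 and 136 CPM in control libraries and at 92.8, 108 and 82.0 CPM in treated ones, an edgeR log2 fold change of -0.61 (SE 0.131, adjusted p = 0.00502). Slc25a1 encodes the carrier that exports citrate from the mitochondrion (gene 13358, chromosome 16, 17925211 to 17928219). It stood at 45.4, 40.8 and 44.6 CPM in control libraries and at 36.8, 30.3 and 31.2 CPM in treated ones, a log2 fold change of -0.41 (SE 0.109, adjusted p = 0.0135).

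The aspartate transaminases of the mitochondrion and the cytosol, partners in the malate-aspartate shuttle, rose together. Got2 (gene 14719, chromosome 8, 95864133 to 95888401) stood at 200, 235 and 207 CPM in control libraries and at 277, 300 and 273 CPM in treated ones (edgeR log2 fold change 0.40 with SE 0.0895, adjusted p = 0.00598). Got1 (gene 14718, chromosome 19, 43499752 to 43524605) stood at 44.6, 51.2 and 49.5 CPM in control libraries and at 59.9, 55.7 and 65.0 CPM in treated ones (log2 fold change 0.31, SE 0.0976, adjusted p = 0.0275). The Got1 to Got2 ratio overlapped, at 0.218 to 0.239 in control and 0.186 to 0.238 with butyrate. The call of Got1 was lost without control replicate 1 (adjusted p = 0.0828) or 3 (0.0542), without butyrate replicate 1 (0.0508) or 3 (0.0844), with no filter (0.0593) and with DESeq2 (0.0614).

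Ratios of partner genes within a library do not depend on how libraries are scaled to each other. Of 15 pairs compared, 6 did not overlap between the groups: Idh1/Idh2, Idh3a/Idh3g, Idh3b/Idh3g, Ogdh/Dlst, Pdk2/Pdk3 and Pdp1/Pdp2. On the log2 scale their mean ratios differed, butyrate minus control, by -1.93, 1.06, 0.79, 0.30, 0.97 and 1.32. Each had an exact two-sided permutation p of 0.1, the smallest that 3 against 3 libraries can give, and 0.25 after adjustment over the 15 pairs, so 0 pairs could pass. The other 9 pairs overlapped, at an exact permutation p of 0.2 to 1. Taken within replicate numbers, 9 of the 15 pairs moved one way in all 3 numbers: the 6 above and, downward, Suclg2/Sucla2, Pdhx/Dlat and Got1/Got2. Pdhx over Dlat was 0.720, 0.615 and 0.679 in control replicates 1 to 3 and 0.616, 0.453 and 0.467 in butyrate replicates 1 to 3. The within-number differences of Got1/Got2 were small, at -0.044, -0.23 and -0.0054 on the log2 scale. An exact two-sided paired permutation test over 3 numbers cannot go below 0.25, the p of each of these 9 pairs.

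**Figure D3:**
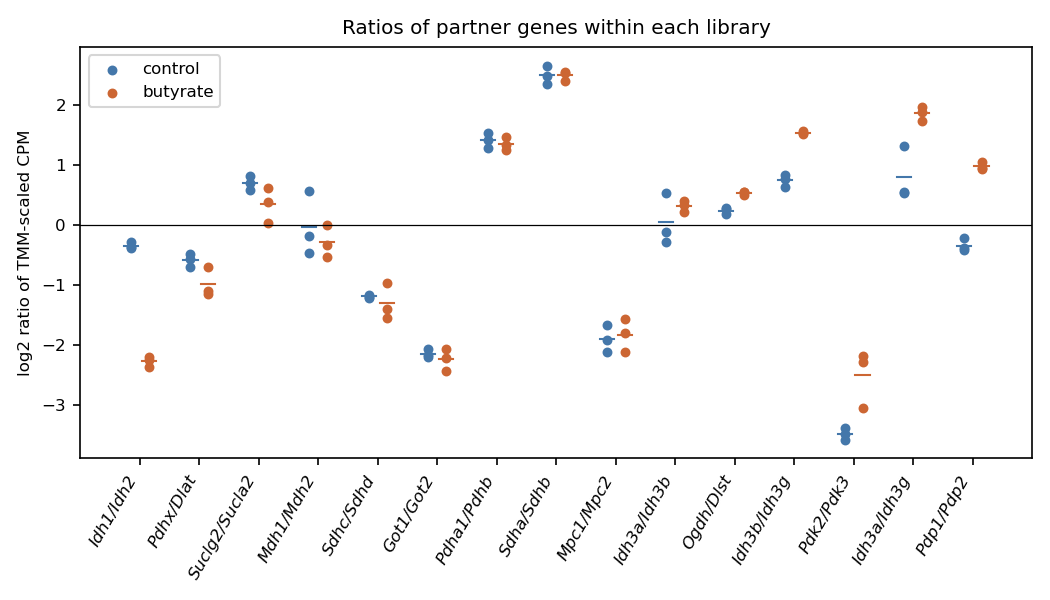
Log2 ratio of the TMM-scaled CPM of partner genes on the y axis for 15 pairs on the x axis, with 1 point per library and a line at each group's mean. Idh1/Idh2 at the left and Pdp1/Pdp2 at the right change most, by -1.93 and 1.32, while Sdha/Sdhb changes by 0.00.

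Levels can be compared between genes per kilobase of transcript, taken from the median length of GENCODE transcripts paired with a RefSeq mRNA. On that scale Sdhd was the highest in control at 216 CPM per kb, followed by Cs at 136 and Mdh2 at 125. Pdk2 at 1.87 and Pcx at 1.92 were the lowest. With butyrate Sdhd stood at 271, Cs at 179 and Mdh2 at 126 CPM per kb, while Pcx reached 5.91 and Idh1 fell from 9.24 to 3.70. Even after its rise Pcx was below the pyruvate dehydrogenase genes Pdha1 (57.0), Pdhb (42.0), Dld (20.9), Dlat (10.9) and Pdhx (8.91) in the butyrate libraries.

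**Figure D4:**
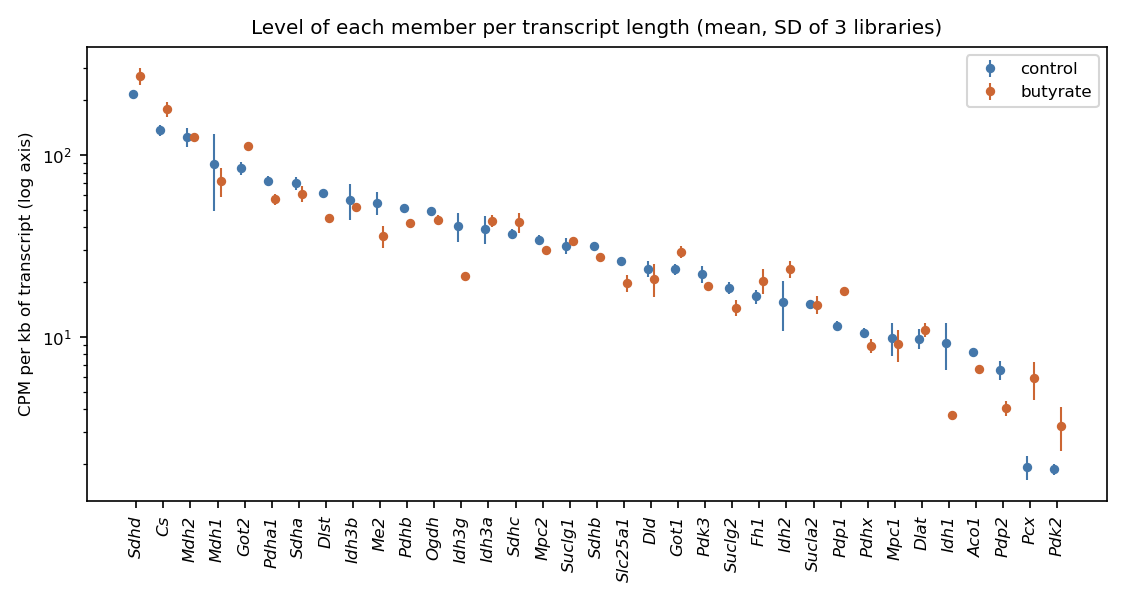
Mean level of each gene in CPM per kilobase of transcript on a log y axis, with bars of 1 SD over 3 libraries, ordered by the control level on the x axis. Levels in control run from 1.87 for Pdk2 to 216 for Sdhd, and the long control bar of Mdh1 includes control replicate 3 at 289 CPM.

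Of 42 further genes of pyruvate, acetyl-CoA, glutamine and lipoate metabolism, 34 were tested, and 6 rose and 6 fell. This share of 35.3% stands beside the 45.9% called of all genes tested. With the replicate block 8 were called higher, the 2 added being the aspartate-glutamate carrier genes Slc25a12 (adjusted p = 0.0383, and 0.0509 without the block) and Slc25a13 (0.0312 and 0.0555), named after their values were seen. The falls included genes that make acetyl-CoA from acetate or citrate. Acss1 encodes the mitochondrial acetyl-CoA synthetase and went from 58.3 ± 10.3 to 22.9 ± 2.70 CPM (SD, n = 3, log2 fold change -1.35, edgeR adjusted p = 0.000195). Its nuclear and cytosolic relative Acss2 fell by 0.96 on the log2 scale, the citrate lyase gene Acly by 0.52 and the ketone body gene Oxct1 by 0.41. Among the rises were the glutaminase gene Gls2 (4.14 ± 0.472 to 11.5 ± 2.76 CPM), the mitochondrial alanine transaminase gene Gpt2 (13.6 ± 2.30 to 34.3 ± 11.3 CPM) and Ldhb (2.24 ± 0.636 to 6.29 ± 1.13 CPM). The lactate dehydrogenase gene Ldha rose from 1281 ± 28.3 to 1708 ± 139 CPM (adjusted p = 0.00603). Glud1, the glutamate dehydrogenase gene, did not pass, at 258 ± 4.72 and 240.2 ± 0.698 CPM (adjusted p = 0.279).

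Of 16 regulators of mitochondrial and metabolic genes, 15 were tested, and 5 rose and 1 fell, a share of 40.0% beside the same 45.9%. With the replicate block 3 were called lower. Without control replicate 1 or 3 or butyrate replicate 1 or 3 the number that rose was 3, and without butyrate replicate 1 or 2 the number that fell was 2. Myc, a driver of growth metabolism in T cells, went from 279 ± 14.6 to 860 ± 97.9 CPM and Hif1a, a driver of glycolytic genes, from 267 ± 33.7 to 431 ± 48.7 CPM (SD, n = 3, edgeR adjusted p = 2.9e-05 and 0.00179). Twnk, the mitochondrial DNA helicase gene, rose by a log2 fold change of 0.36 (adjusted p = 0.00985). Esrra, the gene of an estrogen-related receptor, rose by a log2 fold change of 0.33 (adjusted p = 0.0367), which was lost with DESeq2 (0.0968), with no filter (0.0743), and without control replicate 1 (0.0715), 2 (0.105) or 3 (0.0536) or butyrate replicate 1 (0.0953) or 3 (0.0962). Nrf1, which encodes nuclear respiratory factor 1, fell from 80.3 ± 5.66 to 56.9 ± 7.07 CPM (a log2 fold change of -0.50, adjusted p = 0.00588). Gabpa did not pass (124 ± 4.88 and 107 ± 13.7 CPM, adjusted p = 0.116, and 0.0458 with the replicate block). It was called lower without butyrate replicate 2 (adjusted p = 0.0424).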

How the data were processed

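Libraries were made with an Illumina TruSeq kit from Trizol-extracted RNA, per the labels' protocols. The authors deposited raw read counts per gene, 1 column per library, with genes as Entrez numbers. Per the submitters' processing notes the tools were edgeR, Subread, featureCounts, Picard, TopHat and CASAVA, with mm10 as the build. Their roles, versions and strand setting: not given in the sources used here. Without strand, reads of Pdha1, Mpc1, Got2, Mdh1 and Idh3b cannot be told apart from those of genes with exons on the other strand (603, 480, 434, 52 and 5 bases shared). Reads of Mpc1 and Got2 may be shared with pseudogenes that bear their names. Pseudogenes with other names were not looked for, so reads of other members may be shared too.

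Of 27179 gene numbers 25293 were named, 25275 from RefSeq GRCm38.p6 (the source of coordinates) and the rest from GENCODE M21. Unnamed rows held 0.961% to 1.20% of counts and were kept. A library's limit for a count of 0 (3 counts) was 0.480 to 0.557 CPM, which covers counting error only. Pairs of replicates gave 5.85 to 11.8 for chi-square over its degrees of freedom, above sampling noise. The labels tie them to no mouse or culture, so the p-values rest on a spread between samples that may be only technical.

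Groups were compared with edgeR 4.0.16 (R 4.3.3), quasi-likelihood F test, TMM, filterByExpr and Benjamini-Hochberg adjustment over 11740 genes. The standard error is the size of the log2 fold change over the root of F. The fit was tested on simulated data. Same-numbered control and butyrate libraries deviated together from their group means (r = 0.362, 0.197 and 0.353 over genes), a pairing seen in the data alone. Since the labels state no pairing, the fit behind the calls left the replicate number out. That number entered as the replicate block, among the alternatives, and in the ratios taken within replicate numbers. Alternatives were scaling by RLE, upper quartile or library total, no filter, a stricter filter (5 CPM or more in 3 libraries), robust edgeR, DESeq2 1.42.0, limma voom 3.58.1, the replicate block and each library left out.

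The members and lists were chosen with earlier results of these data known. Each member is named. Values per library are given for called members with a log2 fold change of at least 0.5 in size, for the called member with the smallest p of each role group and for members of pairs that did not overlap. They were also given for some other members, chosen after their values were seen. Of other pathway genes and regulators, up to 4 called per direction by p are named, and the most abundant not called. Beyond that rule, Pdk1, Pdk4, Slc25a12, Slc25a13 and Polg were named after their values were seen.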

Additional observations from a re-analysis of the deposited data

How the results depend on the processing

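Over 15 alternatives, 10 of the 18 called genes kept their call throughout: Pcx, Pdp1, Pdp2, Cs, Idh1, Idh3g, Dlst, Me2, Got2 and Slc25a1, with the highest adjusted p at 0.0491. The other 8 lost it in 1 to 6 alternatives and kept their direction in all of them. Members called higher numbered 4 to 7 and members called lower 7 to 9 when 1 library was left out (8 and 10 with all). The replicate block gave 8 and 10 again and changed no member's call. The members' median log2 fold change was -0.076 with upper quartile scaling (-0.16 with TMM). That of all genes tested was 0.085 (0.00 with TMM), so the members' median minus that of all genes was -0.16 with both scalings. With 1 library left out the members' median was -0.18 to -0.11. Regulators called higher numbered 3 with no filter and with DESeq2, and 3 to 4 with 1 library left out (5 with all). Regulators called lower numbered 2 with no filter, 3 with the replicate block and 1 to 2 with 1 library left out. The difference in the summed share of the genes was -0.00649 to 0.0138 percentage points with 1 library left out (0.0046 with all). Partner pairs with no overlap numbered 6 to 9 with 1 library left out. Leaving out a library can only keep or raise this number, so it does not test the 6 pairs. Depth limits Pdk2 most, with 22 counts in its lowest library.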
